A study of Mus musculus with 80 samples.

Results

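The genes considered here are 10 genes that serve as markers of PPARγ action in fatty liver and in fat cells: Cav1, Cd36, Cfd, Cidec, Cidea, Fabp4, Mogat1, Plin2, Plin4 and Lpl. They are 10 of the 21938 protein-coding genes of GENCODE release M21 on the mouse genome mm10. A window was drawn around each gene, from 5 kb upstream of its start to 1 kb downstream of its end, and every peak interval of RXR chromatin immunoprecipitation sequencing (ChIP-Seq) that overlapped it was taken. Of 589904 intervals in the 40 ChIP libraries, 95 overlapped a window of these genes, and 9 of the 10 genes had at least 1. Of all genes, 8.5% to 51.6% had a peak in at least 1 of the 5 livers of a group. The share over all 40 libraries is not given here, so 9 of 10 does not set these genes apart. The windows spanned 7.8 kb (Cfd) to 113 kb (Cd36), with a median of 28.9 kb against 23.4 kb over all genes.

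Livers came from male C57BL6/J mice aged 5 months after 12 weeks on their diets, either wild type (WT) or with a liver-specific PPARγ knockout (KO). The 4 regimens of each genotype were a control diet without the drug (Control), that diet plus pioglitazone (Pio), a high-fat diet without the drug (HFD) and the high-fat diet plus the drug (HFD-Pio), with 5 livers in each of the 8 groups and an input library beside each ChIP library. The KO mice carry loxP-flanked PPARγ alleles and Cre under the albumin promoter, which is active in hepatocytes, so other liver cells are not targeted. The WT mice were C57BL6/J mice from a supplier, without loxP sites or Cre. The labels give no antibody for 15 KO libraries (Pio, HFD and HFD-Pio), whose titles name RXR, and these were taken as RXR ChIP.

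PPARγ is a nuclear receptor for fatty acids and for thiazolidinedione drugs such as pioglitazone. It binds DNA together with RXR, at direct repeats of the sequence AGGTCA separated by 1 base (DR1), and RXR also pairs with many other receptors, so that an RXR peak alone does not name PPARγ. The 10 genes act at successive steps of fat handling. Lpl, Cd36, Fabp4 and Cav1 bring fatty acids into and through the cell, Mogat1 makes diacylglycerol on the way to triglyceride, Plin2, Plin4, Cidea and Cidec coat or enlarge lipid droplets, and Cfd (adipsin) is a protease secreted by fat cells. PPARγ is best known as the regulator of these genes in adipocytes, and several of them are low in lean liver and high in steatosis.

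The sequences shown first are the DR1 elements of these genes, because they are the places where binding by PPARγ with RXR would be looked for. A pair of AGGTCA copies with any 1 base between them was searched on both strands of mm10, and the spacer base was left out of the comparison. With at most 1 mismatch in the 12 compared bases, 5 matches lay in the windows, 1 in each of 5 genes, or 15.2 per Mb against 21 per Mb over all protein-coding windows. They are printed with the 13 bases of the match in capitals and 8 bases on either side, 5′ to 3′ on the strand of the match.
Plin2: gcagtctgAGGTCAAAGCTCAgtaaaccc
Cd36: gtactcaaAGGTCAGAGTTCAgatagatt
Mogat1: ctgccgtgAGGTCATGGGTCAagatgaca
Cav1: ctattgagAGTTCAAAGGTCAtcctttgt
Cidec: aggtatgaAGGTCAGAGGACAactttgtt
The Plin2 match lies on the minus strand at chr4:86657037-86657049, that of Cd36 on the minus strand at chr5:17824984-17824996, that of Mogat1 on the minus strand at chr1:78523098-78523110, that of Cav1 on the plus strand at chr6:17338275-17338287 and that of Cidec on the minus strand at chr6:113424451-113424463. None of the 5 had a summit of any library within 100 bp, and 3.02% of 23839 such matches in all protein-coding windows had one. At that share 0 of 5 is the most likely count, so it does not set these genes apart. The nearest summit was 0.135 kb away for Plin2, in 1 WT HFD-Pio liver, 0.862 kb for Cav1, 1.89 kb for Cd36, 3.08 kb for Mogat1 and 14.3 kb for Cidec.

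RefSeq promoters (GRCm38.p6), from 250 bases before to 50 bases after a start site, were given for 7 of these genes, 9 in all. With at most 1 mismatch, 0 of the 9 held a match, beside 0.554% of all promoters, a share at which 0 of 9 is the most likely count. With at most 2 mismatches, 4 of the 9 did. All promoters of that length held one in 3.86% of 32851 cases. The 4 are printed below in the same way, for chr6:17307496-17307508 of Cav1, chr5:17835947-17835959 of Cd36, chr1:78511009-78511021 of Mogat1 and chr4:86670272-86670284 of Plin2, each read on the plus strand.
Cav1 promoter: aggttgtgGGGTCATAGGTCTggcggaga
Cd36 promoter: atccaagtAAGTCAGAGGCCAgagaacca
Mogat1 promoter: cagaattcAGGTAAAAAGTCAggctggtg
Plin2 promoter: tctgacttAGGTCAGGGGTCCtgaaagct
The nearest summits lay 0.204 kb from the Mogat1 match (1 WT HFD liver), 0.408 kb from the Cav1 match, 1.27 kb from the Plin2 match and 6.04 kb from the Cd36 match. These letters in a window are a description of the sequence and not evidence of a bound site.

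The libraries differed in ways that touch every result. WT libraries kept 2.04 to 4.26 M tags and were called at a p cutoff of 0.001, whereas KO libraries kept 0.628 to 1.06 M tags and were called at a q cutoff of 0.05, so genotype cannot be told apart from depth and cutoff. In 6 WT libraries, all from pioglitazone-treated mice (WT Pio 2, 3 and 5 and WT HFD-Pio 1, 4 and 5), the peak caller estimated a fragment length of 45 to 48 bp, and their median peak was 45 to 48 bp wide against 169 to 292 bp in the other 14. These 6 libraries had a peak in 19.5 to 38.3% of all gene windows, the other WT libraries in 1.09 to 16.2% and the KO libraries in 15.9 to 38.7%.

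The number of the 10 genes with a peak followed this overall level within WT. It was 0 to 2 in the 14 WT livers with longer fragments, 2 to 5 in the 6 with short fragments and 1 to 3 in the 20 KO livers. By group, it was 1, 2, 0, 0 and 0 in WT Control, 2, 4, 5, 1 and 4 in WT Pio, 1, 0, 0, 0 and 0 in WT HFD, and 3, 0, 0, 4 and 2 in WT HFD-Pio. KO livers had 1, 1, 2, 2 and 3 in Control, 1, 3, 1, 2 and 2 in Pio, 3, 2, 3, 3 and 1 in HFD, and 2, 3, 3, 3 and 3 in HFD-Pio. The share of gene and liver pairs with a peak was 6% for the 10 genes and 7.23% for all genes in WT Control, 32% and 20.1% in WT Pio, 2% and 2.21% in WT HFD, and 18% and 17.2% in WT HFD-Pio. It was 18% and 29% in KO Control, 18% and 34.6% in KO Pio, 24% and 30.4% in KO HFD, and 28% and 33.5% in KO HFD-Pio.

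**Figure D1:**
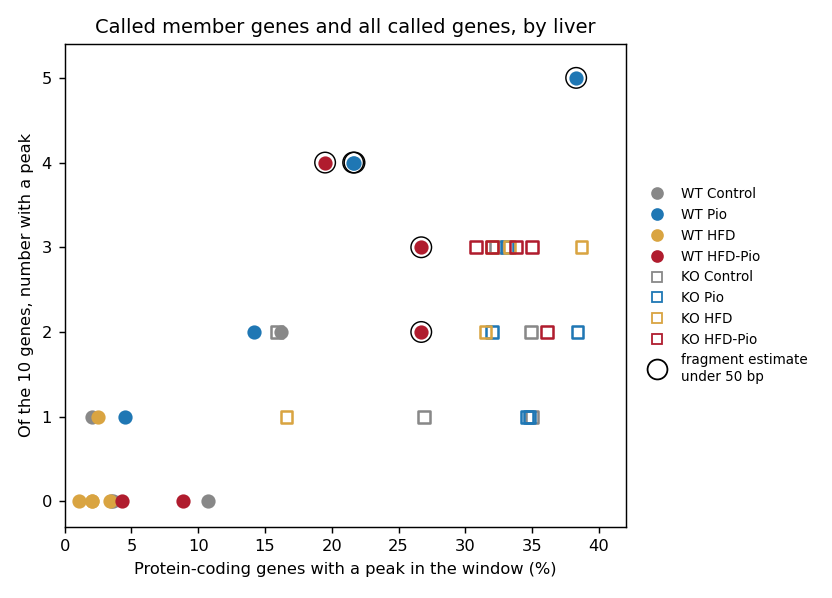
Number of the 10 genes with a peak in the window (vertical axis, 0 to 10 possible) against the percentage of all protein-coding genes with a peak (horizontal axis), 1 symbol per liver, with filled circles for WT, open squares for KO and colours for treatment. Ringed circles are the 6 WT libraries with a fragment estimate of 45 to 48 bp, which had 2 to 5 of the 10 genes.

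Most peak regions at these genes were seen in 1 liver only, and fold enrichment and pileup were mostly low. The 95 intervals formed 44 separate regions, of which 32 were seen in 1 library, 5 in 2 and 7 in 3 or more. Their fold enrichment over input ranged from 2.69 to 10.4, with a median of 3.79, and 57 of 95 had a pileup of 2 or 3 tags at the summit. Of the 40 WT intervals, 25 had a q of at most 0.05. All 55 KO intervals did, as that was the cutoff at which KO peaks were called. At 2 of the 10 genes, Cfd and Cav1, a region recurred in 3 or more livers of some group. The same values are not given here for all genes, so they do not set the 10 genes apart.

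**Figure D2:**
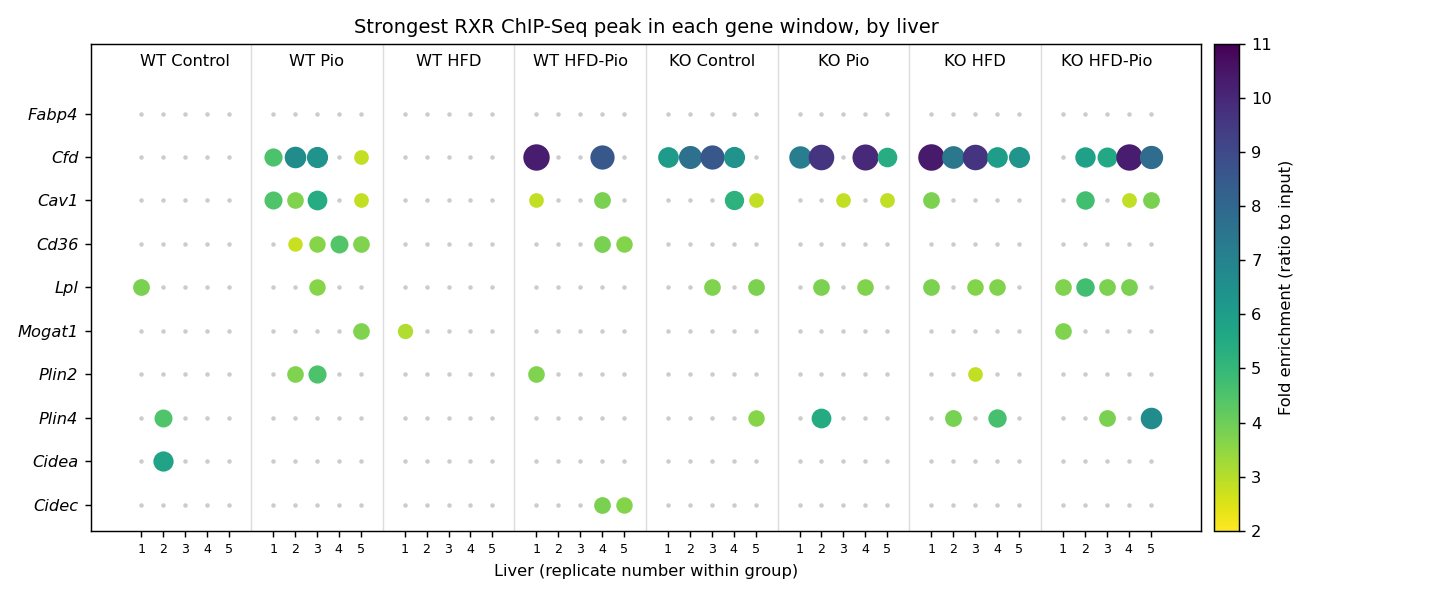
Strongest peak in each gene window (rows) in each of 40 livers (columns, replicate number within group), with dot size and colour giving fold enrichment over input as the peak caller computed it and small grey dots for no peak. Cfd carried the highest values, up to 10.4, whereas no liver had a peak at Fabp4.

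Many of the peaks lay in exons. In KO livers the summit was in an annotated exon for 54 of 55 intervals (98.2%), against 85.5% of KO intervals in all protein-coding windows. In WT livers it was 17 of 40 (42.5%), against 43% over all windows, and exons make up 12.4% of the bases of the 10 windows. In WT Control and WT HFD, 0 of 5 intervals were exonic. Peak lists hold no reads, so whether the reads under these exonic peaks were spliced was not tested.

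**Figure D3:**
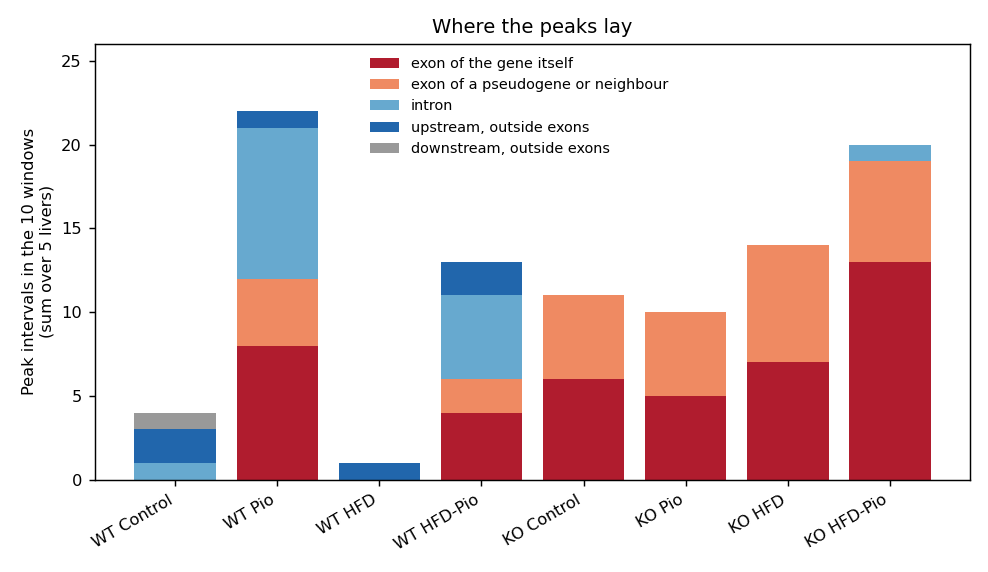
Number of peak intervals in the 10 windows (vertical axis, summed over the 5 livers of a group) by where the summit lay. The interval of WT Pio 1 at Cfd, which overlaps a pseudogene with its summit 28 bases outside, is drawn as exonic. Exons of the genes themselves (red) and of pseudogenes or neighbouring genes (orange) account for 54 of 55 KO intervals and 0 of 5 intervals in WT Control and WT HFD.

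Cfd, which encodes adipsin, had the most called libraries of the 10, 23 of 40, and all 23 intervals fell in a single region at chr10:79888576-79888976, 2.07 kb upstream of the start of the gene. The region covers Gm19810, a processed pseudogene of 251 bases on the plus strand at chr10:79888712-79888962. The pseudogene matched the transcript of Rps21, a ribosomal protein gene, with 95.2% identity over 251 aligned bases. The summit lay inside the pseudogene in 22 intervals and 28 bases outside it in 1 (WT Pio 1). At Rps21 itself, a peak was called within the gene in 0, 4, 0 and 3 of 5 livers of WT Control, Pio, HFD and HFD-Pio, and in 4, 4, 4 and 4 of 5 livers of the KO groups in the same order.

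In the Cfd window, the strongest fold enrichment was 4.56, 6.65, 6.38, none and 2.82 in WT Pio livers 1 to 5, and 10.3, none, none, 8.57 and none in WT HFD-Pio. None of the WT Control or WT HFD livers had a peak there. KO livers had 6.07, 7.68, 8.56, 6.36 and none in Control, 7.23, 9.62, none, 10 and 5.4 in Pio, 10.4, 7.42, 9.6, 6.04 and 6.29 in HFD, and none, 5.88, 5.6, 10.3 and 7.87 in HFD-Pio. The peak was called in 17 of 20 KO livers and in 6 of the 10 WT livers with pioglitazone, and 5 of these 6 were libraries with short fragments. Within 100 bp of its strongest summit the best DR1 match had 4 mismatches of 12, and it is printed because this was the most recurrent region of the 10 genes. It lies on the minus strand at chr10:79888685-79888697.
Cfd region: gccgtcccTGCTCACTGGTCCagcgagag
Across the 40 libraries, the strongest fold enrichment at Cfd was most like that of Elane (Spearman rho of 1), whose window holds the same region, and next like that of Psmd7 (0.85) and Drg1 (0.85). These are descriptions over libraries that share their depth and overall number of peaks.

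**Figure D4:**
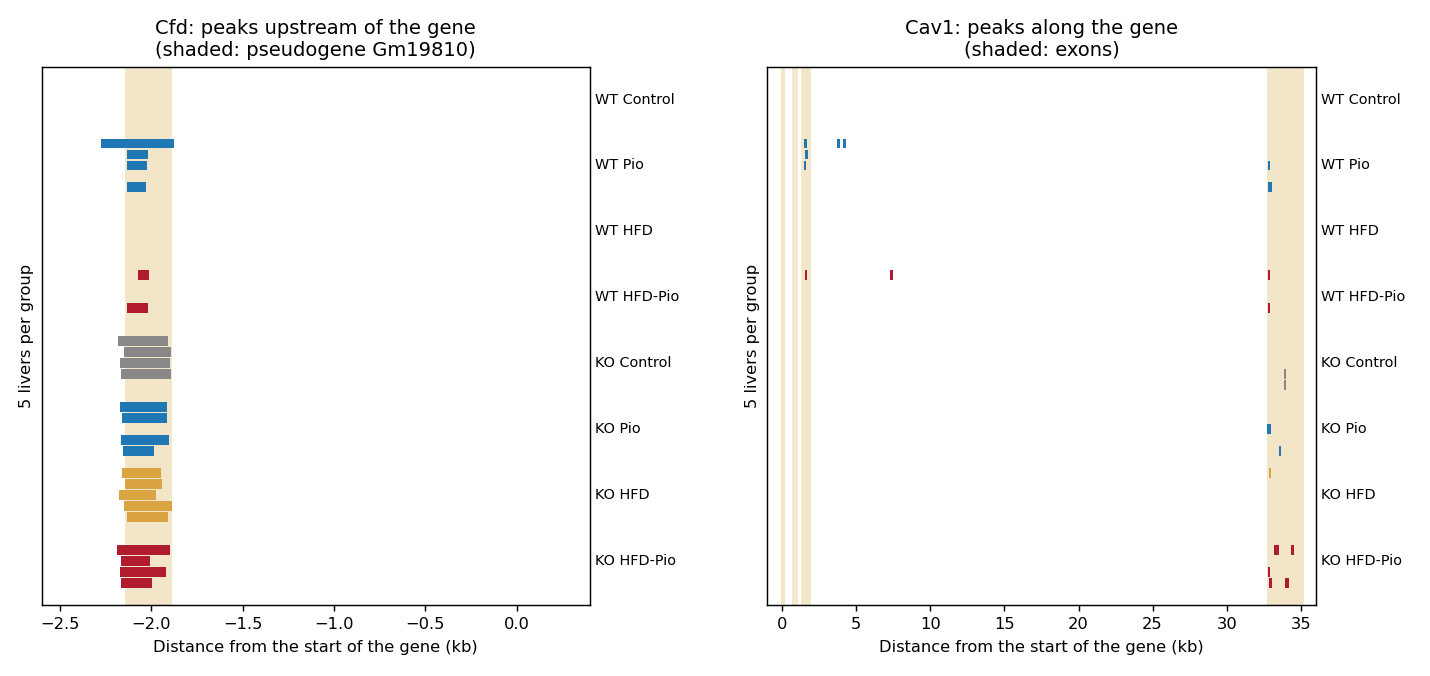
Peak intervals at Cfd (left) and Cav1 (right) by distance from the start of the gene in kb, 1 row per liver in groups of 5, coloured by treatment, with very narrow intervals widened to be visible. The Cfd intervals all overlap the shaded pseudogene, and the Cav1 intervals of KO livers lie in the last shaded exon, whereas the exon 2 intervals were drawn from 4 WT livers.

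Cav1 encodes caveolin, the coat protein of membrane pits that take part in fatty acid uptake and that line lipid droplets in fat cells. Its strongest fold enrichment was 4.49, 3.74, 5.47, none and 2.82 in WT Pio, and 2.81, none, none, 3.81 and none in WT HFD-Pio. Neither WT Control nor WT HFD livers had a peak in its window. In KO livers it was 5.23 and 2.83 in 2 Control livers, 2.81 and 2.85 in 2 Pio livers, 3.78 in 1 HFD liver, and 4.72, 2.85 and 3.8 in 3 HFD-Pio livers.

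The Cav1 intervals lay at different places along the gene. A region in the second coding exon at chr6:17307785-17308031, 1.58 kb from the gene start, was called in WT Pio 1, 2 and 3 and WT HFD-Pio 1, with fold enrichments of 4.49, 3.74, 3.64 and 2.69, and in 0 of 20 KO livers. All 10 KO intervals lay in the last exon, 6 of them in its 3′ UTR. The coding part of that exon at chr6:17339062-17339360, 32.82 kb from the start, was called in 8 libraries of both genotypes (2 WT Pio, 2 WT HFD-Pio, 1 KO Pio, 1 KO HFD and 2 KO HFD-Pio). An antisense gene, Gm15581, overlaps Cav1, and ChIP peaks carry no strand. The best DR1 matches beside the strongest summits of these exonic regions had 4 and 5 mismatches and lie on the plus strand at chr6:17307905-17307917 and chr6:17339155-17339167.
Cav1 exon 2: ttcccatcCGGGAACAGGGCAacatctac
Cav1 exon 3: ggacacacAGTTTCGACGGCAtctggaag

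Cd36, a fatty acid transporter of the plasma membrane, had peaks in 6 WT livers, all with pioglitazone, and in 0 of 20 KO livers. Its strongest fold enrichment was none, 2.74, 3.64, 4.44 and 3.75 in WT Pio and none, none, none, 3.81 and 3.66 in WT HFD-Pio. The 10 intervals were at 10 different places along the 107 kb gene and none overlapped another. Of these, 9 were intronic, and 1 (WT Pio 5) lay in the 5′ UTR exon at chr5:17849702-17849775. The pileup was 2 or 3 tags in 9 of the 10 and 5 tags in WT Pio 4, the only one of these libraries with longer fragments, at chr5:17841829-17842091. The Cd36 window is the longest of the 10, 113 kb against the median of 23.4 kb over all genes.

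Lpl, the lipase that frees fatty acids from circulating lipoproteins, was called mostly in KO livers. It had peaks in 11 of 20 KO livers, 2, 2, 3 and 4 of 5 in Control, Pio, HFD and HFD-Pio, and all 20 KO intervals were in its exons, 8 in coding sequence, 11 in the 3′ UTR and 1 in the 5′ UTR. The strongest peak was 3.75 and 3.78 in KO Control 3 and 5, 3.77 and 3.71 in KO Pio 2 and 4, 3.78, 3.68 and 3.71 in KO HFD 1, 3 and 4, and 3.75, 4.72, 3.79 and 3.8 in KO HFD-Pio 1 to 4. The fold enrichment of the 20 intervals was between 2.79 and 4.72, at a pileup of 2 to 4 tags. The most recurrent of them, in the 3′ UTR at chr8:68905676-68906539, was called in 5 KO livers. In WT livers there were 2 intervals, 2.48 kb upstream in WT Control 1 (3.82) and 4.82 kb upstream in WT Pio 3 (3.64). The latter had 1 of only 2 DR1 matches with at most 2 mismatches found within 100 bp of the strongest summits of the 44 regions (4.55%, against 1.91% of all WT and 2.68% of all KO intervals), on the plus strand at chr8:68875630-68875642.
Lpl upstream: ctgtaaaaAGTTCAAATGTCAcatataca
The other was in the recurrent 3′ UTR region, on the plus strand at chr8:68906531-68906543.
Lpl 3′ UTR: tgtaatatAGGACAAAGGTGAccgatttc

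**Figure D5:**
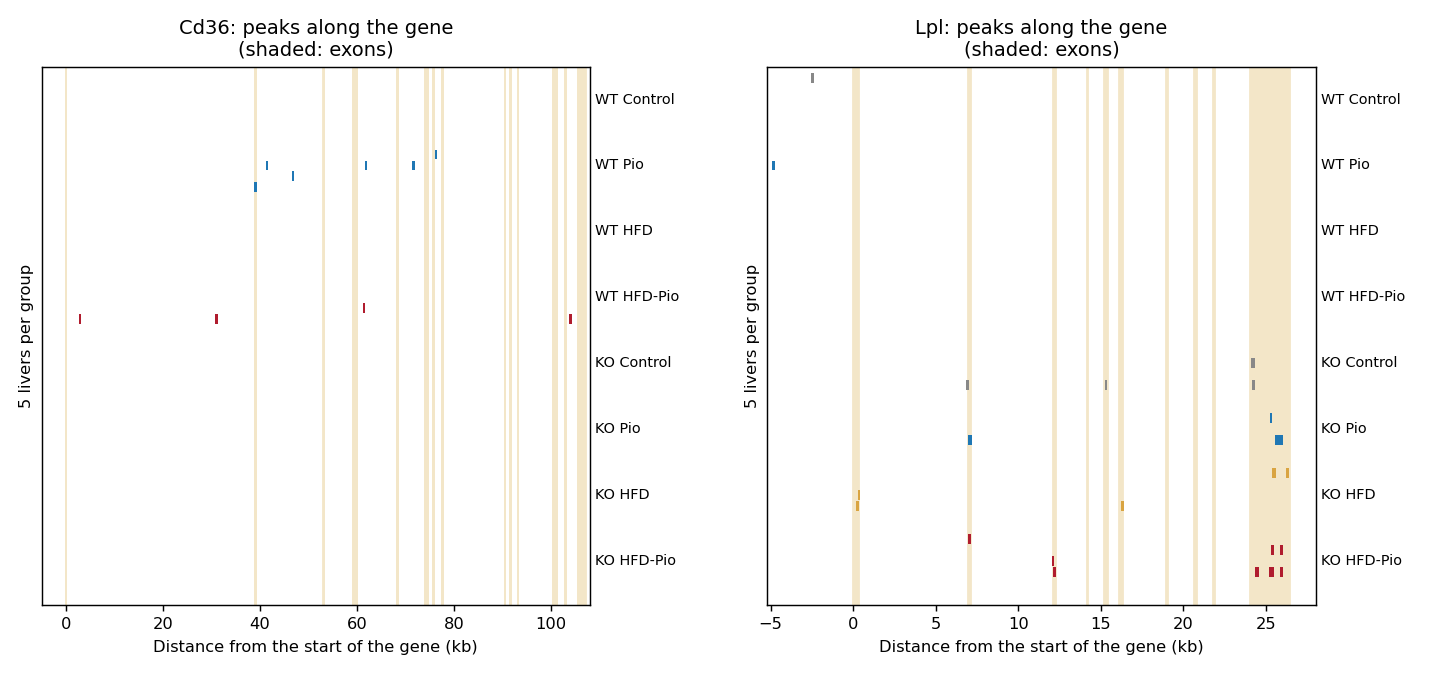
Peak intervals at Cd36 (left) and Lpl (right) by distance from the start of the gene in kb, 1 row per liver in groups of 5, coloured by treatment, with exons shaded and very narrow intervals widened to be visible. The 10 Cd36 intervals are scattered and come from WT livers with pioglitazone, whereas all 20 KO intervals at Lpl fall on exons.

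The lipid droplet proteins had few peaks. Plin2, which coats hepatocyte lipid droplets, was called in WT Pio 2 (3.74) and 3 (4.56), WT HFD-Pio 1 (3.75) and KO HFD 3 (2.82), each time at a different place, 3 of them in coding exons. Plin4, a droplet coat protein of fat cells, was called in WT Control 2 (4.47), 0.83 kb upstream of its start at chr17:56110538-56110748. Its 6 KO peaks, in 1, 1, 2 and 2 of 5 livers of Control, Pio, HFD and HFD-Pio, were downstream of the gene in exons of the neighbouring gene Hdgfl2, at chr17:56099786-56100051 (4 livers) and chr17:56100387-56100553 (2 livers). Cidec, which enlarges droplets, was called in WT HFD-Pio 4 (3.81) and 5 (3.66), both with short fragments, in a region of 47 bases 2.97 kb upstream of its start (chr6:113438704-113438750) and at a pileup of 3 tags. The best DR1 match there had 3 mismatches, on the minus strand at chr6:113438681-113438693.
Cidec upstream: cctaggctAGCCCAGAGCTCActttctgt
Cidea, a relative of Cidec, had 2 intervals in WT Control 2, 1 intronic and 1 downstream, with a strongest fold enrichment of 5.78, and none in the other 39 libraries.

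Mogat1, which makes diacylglycerol, was called in WT Pio 5 (3.75, intron), WT HFD 1 (3.08, 0.18 kb upstream and within the neighbouring gene BC035947) and KO HFD-Pio 1 (3.75, intron). Fabp4, the fatty acid binding protein of fat cells, had no peak in its window in any of the 40 libraries. With 10 kb on either side of the gene, Fabp4 was also without a peak in all 40.

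The comparison of Pio with Control asks whether the drug changes RXR binding at these genes in WT liver on the control diet. The authors report that Pio raised liver fat in WT mice on this diet, so the drug and liver fat cannot be told apart here. A gene counted as gained when 3 or more livers in the first group, and 0 in the second, had a peak in its window, and as lost in the opposite case. Cav1, Cd36 and Cfd were gained (3 of 10 genes), each in 4 livers against 0, beside 9.14% of all genes. No gene of the 10 was lost, beside 0.0638% of all genes. When livers with and without a peak were compared by Fisher's exact test (two-sided, Benjamini-Hochberg adjustment over 12415 genes), none of the 3 passed (p = 0.0476, adjusted p = 0.418 for each), and 0 genes in all passed, with 1413 at an unadjusted p below 0.05 and 1609 by the permutation test, which also passed 0. The strongest fold enrichment, with 0 for no peak, was 3.3 ± 2.09 at Cav1, 2.91 ± 1.74 at Cd36 and 4.08 ± 2.75 at Cfd in WT Pio (SD, n = 5) against 0 in WT Control. An exact two-sided permutation test gave an adjusted p of 0.367 for each of them. With 0 in all WT Control livers, its unadjusted p equals that of Fisher's exact test, so it is no second check. A gene called in 4 livers against 0 could pass either adjustment only if nearly all tested genes had a p as small. That these 3 genes did not pass therefore neither shows nor excludes a gain at them. Across the 10 genes the median difference was 0.5 livers, against 0 over all genes, and the mean difference was 1.3 livers against 0.641. The count of 3 genes went to 0 when each library was held to the same number of peaks, and to 1 (Cd36) when peaks with a summit in an exon were left out. Equal numbers meant 1036 intervals per library, as many as WT Control 1 had, against up to 33705 in WT Pio. That cut removes most peaks of the larger libraries, so nothing is concluded from the fall to 0. In whole liver, fewer cells with a bound site and weaker binding per cell cannot be told apart.

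On HFD, the same comparison gained 0 of the 10 genes, and lost 0, beside 9.34% and 0.00456% of all genes. Cav1, Cd36, Cfd and Cidec were each called in 2 of 5 WT HFD-Pio livers and Plin2 in 1, against 0 of 5 WT HFD livers, while Mogat1 was called in 0 against 1. No gene passed the adjusted Fisher test over 10349 genes (765 at an unadjusted p below 0.05). The median difference was again 0.5 livers against 0 over all genes. The mean difference was 0.8 livers against 0.751, so by the mean the 10 genes were close to all genes. The drug effect on the number of livers differed between the diets by 2 livers (4 against 2) at Cav1, Cd36 and Cfd, which an exact permutation test of the diet labels did not separate (p = 0.524, adjusted p = 1 for each).

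When both diets were pooled, a comparison added after seeing the data, Cav1, Cd36 and Cfd were each called in 6 of 10 WT livers with pioglitazone and 0 of 10 without. Fisher's exact test gave p = 0.0108 for each and an adjusted p of 0.098 over 14542 genes, of which 7.47% passed. With the 6 short-fragment libraries left out, each of the 3 genes was called in 1 of 4 livers with the drug and 0 of 10 without (Fisher's exact test p = 0.286, adjusted p = 0.832), and 0% of 8793 genes passed. Short fragments occurred only with pioglitazone, so fragment length and the drug cannot be told apart at these genes with the libraries at hand.

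In KO livers, pioglitazone gained and lost 0 of the 10 genes on either diet, beside 0.948% gained and 0.169% lost of all genes on control diet and 0.570% and 0.333% on HFD. A gene already called in a KO liver without the drug could not be gained. These were Cfd, Cav1, Lpl and Plin4 on control diet, and the same genes with Plin2 on HFD. For them, 0 gained says nothing about the drug. On control diet the number of livers with a peak was equal in both groups at all 10 genes (Cfd 4 and 4, Cav1 2 and 2, Lpl 2 and 2, Plin4 1 and 1, the other 6 at 0). On HFD, Cav1 was called in 3 livers with the drug and 1 without, and Lpl in 4 and 3, whereas Cfd was called in 4 and 5. No gene passed the adjusted Fisher test (117 and 61 at an unadjusted p below 0.05 on the 2 diets). The drug effect at Cd36 on control diet, 4 livers in WT against 0 in KO, gave an exact permutation p of 0.0476 and an adjusted p of 1 over 16305 genes, and that at Cfd and Cav1, also 4 against 0, gave p = 0.143 (adjusted p = 1).

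Diet alone was compared within each genotype and drug level. Between HFD and Control, 0 of the 10 genes were gained or lost in WT livers, beside 0.0137% gained and 0.907% lost of all genes, and 0 in KO livers, beside 0.529% and 0.242%. Between HFD-Pio and Pio, 0 were gained or lost in WT (0.242% and 0.451% of all genes) and in KO livers (0.305% and 0.570%). In WT livers, Cav1, Cd36 and Cfd were each called in 2 HFD-Pio against 4 Pio livers, Plin2 in 1 against 2, Mogat1 and Lpl in 0 against 1, and Cidec in 2 against 0. The 4 comparisons share their groups with those of the drug. No gene of any kind passed the adjusted Fisher test in them, with 11 to 82 genes at an unadjusted p below 0.05.

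Between the genotypes, 4 of the 5 differences counted were peaks called in KO and not in WT livers, and depth and cutoff differ with genotype. Cfd was lost in WT Control against KO Control (0 against 4 livers), beside 19.8% of all genes (gained 0, beside 0.410%), and Cfd and Lpl were lost in WT HFD against KO HFD (0 against 5 and 0 against 3), beside 26.6% (gained 0, beside 0.132%). Lpl was lost in WT HFD-Pio against KO HFD-Pio (0 against 4), beside 11.8% (gained 0, beside 1.84%). The 1 gene gained was Cd36, in WT Pio against KO Pio (4 against 0), beside 2.55% of all genes (lost 0, beside 11.4%). Of these, Cfd on HFD passed (Fisher's exact test p = 0.00794, adjusted p = 0.0322 over 11331 genes, of which 24.6% passed), with a strongest fold enrichment of 0 in WT HFD and 7.95 ± 1.96 in KO HFD (SD, n = 5). The peaks behind that difference are those in Gm19810. Cfd was no longer counted as lost when exonic peaks were left out or when each library was held to the same number of peaks. The latter kept 579 intervals per library, as many as WT HFD 4 had, against 8311 to 28922 called in the KO HFD libraries. That cut removes most KO peaks, so nothing is concluded from it. In Fisher's exact test, a split of 4 livers against 0 could pass the adjustment only if nearly all tested genes had a p as small. A split of 3 against 0, that of Lpl on HFD, could not pass at all. The failure of these splits to pass is therefore not evidence against a difference. The adjusted p of Fisher's exact test was 0.161 for Cfd on control diet, 0.21 for Cd36, 0.307 for Lpl on HFD and 0.228 for Lpl on HFD-Pio. Over all genes, 0 passed this test on control diet, Pio and HFD-Pio, with 3787, 3344 and 3038 at an unadjusted p below 0.05, whereas the permutation test on fold enrichment passed 2475, 3202 and 2840 (19.3%, 21.7% and 19.5%) and, on HFD, 26.5%.

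The gene deleted in the KO mice, Pparg, had a peak in its window in 2 WT Control (4.59 and 4.5), 4 WT Pio (6.84, 6.55, 9.11 and 4.69), 0 WT HFD and 3 WT HFD-Pio livers (6.19, 7.62 and 3.66), and in 1 of 20 KO livers (KO Pio 4, 3.71). A peak list does not show whether the gene is deleted, so this is no check of the genotype.

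Lists of related genes, chosen by function, were counted in the same way. Of 14 other lipid droplet proteins, 3 (Pnpla2, Bscl2 and Pnpla3) were gained in WT Pio against Control and 1 (Pnpla2) in WT HFD-Pio against HFD. Of 13 genes of triglyceride synthesis, 0 and 1 (Acsl5) were gained, of 14 genes of fatty acid uptake and lipolysis 1 and 2, and of 12 other adipocyte PPARγ targets 3 (Pck1, Tkt and Acss2) and 1 (Pck1). In all, 7 of these 53 genes (13.2%) were gained in WT Pio and 5 (9.43%) in WT HFD-Pio, beside 9.14% and 9.34% of all genes. In KO livers, 0 genes of these lists were gained on either diet and 1, of triglyceride synthesis, was lost on control diet. Bscl2 and Tkt had a peak in 5 of 5 livers of every KO group, so neither could be gained there. Their mean strongest fold enrichment in the KO groups was 13.5 to 18 and 11 to 13.3, against 3.73 and 6.4 in WT Pio. Pnpla2 was called in 1, 2, 1 and 1 livers of KO Control, Pio, HFD and HFD-Pio, and Acss2 in 2 KO HFD livers. The genes described next were chosen for their difference between WT livers with and without the drug, so that difference is a description. Fabp1, the fatty acid binding protein of hepatocytes, was called in 4 WT Pio and 4 WT HFD-Pio livers and in none of the other groups, and Pck1, a gluconeogenic enzyme, in 5 and 3 and in no other. Pnpla3, a droplet lipase family member, was called in 3 and 3, with 1 WT HFD liver and 0 KO livers. At Fabp1 15 of 16 summits were in exons, at Pck1 18 of 18 and at Pnpla3 6 of 8. Their most recurrent regions reached 8 livers at Fabp1, 0.12 kb from the start, 8 at Pck1 and 5 at Pnpla3. Choosing genes called in many livers favours such recurrence, so it is a description too. No Cd36 region reached 2 livers, but Cd36 was not chosen in this way, so no comparison is drawn. Lipc, hepatic lipase, held an intronic region in 10 WT and all 20 KO livers with a fold enrichment of up to 39.8, against 10.4 for the highest peak at the 10 genes.

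Marker lists of other cell types were counted too. The share of all genes with a peak in 3 or more livers was 2.32%, 15.2%, 0.542% and 11.9% in WT Control, Pio, HFD and HFD-Pio, and 28.2%, 33.4%, 29.7% and 32.0% in the KO groups in that order. All 5 neural markers (such as Snap25 and Syt1) had a peak in at least 3 of 5 livers of every KO group, against 0, 2, 0 and 3 of 5 markers in WT Control, Pio, HFD and HFD-Pio. Of 12 hepatocyte markers, 2 had a peak in at least 3 livers in each KO group and 0 in each WT group. With a peak in at least 1 liver, it was 9, 7, 1 and 2 of the 12 in WT Control, Pio, HFD and HFD-Pio. In the KO groups it was 3, 4, 4 and 4. The shares of all genes were 25.3%, 48.2%, 8.5% and 44.8% in WT and 47.4%, 50.5%, 48.2% and 51.6% in KO. Of 6 adipocyte markers, among them Adipoq with no peak in any library, 0 had a peak in at least 3 livers of any group. For skeletal muscle the count was 1 of 5 in each KO group and in the WT groups with the drug (Acta1 in each), and 0 in WT Control and WT HFD. Endothelial markers reached it at 2 of 5 in KO Pio, 1 in KO HFD-Pio and 0 elsewhere, and macrophage markers at 1 or 2 of 5 in the KO groups and 1 in WT Pio. Their part in the peaks at the 10 genes was not tested.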

How the data were processed

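RXR ChIP-Seq and input libraries were made from 40 mouse livers (5 per group). Input samples came with no peak files, and only ChIP peak lists were used. The authors aligned reads to mm10 with Novoalign and called peaks per library against its own input with MACS2 2.1.1.20160309, with a p cutoff of 0.001 in WT and a q cutoff of 0.05 in KO libraries, and 1 tag kept per position. The deposited files give each peak's fold enrichment over input as the peak caller computed it, the signal at the summit (pileup, in tags), −log10 p and −log10 q and a display score. At low pileup, fold enrichment moved in steps of 1 tag. In WT HFD-Pio 1, a pileup of 2 tags gave up to 2.81 at Cav1, and 3 tags gave 3.75 at Plin2. The second deposited file of each library held the same peaks in 40 of 40. Read counts per site were not used here, so no counting interval was computed, and the authors' differential test could not be repeated. Replicates were separate livers.

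Summits of 1 interval were merged, keeping the strongest. Intervals on chromosomes 1 to 19, X and Y were assigned to windows by an overlap of at least 1 bp, and the genes were those of GENCODE M21. Regions are intervals of 1 gene that overlapped by at least 1 bp. Calls (5 against 5 livers) were compared with Fisher's exact test and fold enrichment with an exact permutation test over 252 assignments (smallest possible p 0.00794 for both), two-sided and adjusted by Benjamini-Hochberg over all genes with a peak in either group. Differences between drug effects were tested by exact permutation of diet or genotype labels within each drug level. Tests were checked on simulated data. The pseudogene was compared with GENCODE M21 transcripts by blastn 2.17.0. Figures were drawn with matplotlib 3.10.9, sequences read with pysam 0.24.0 and tests run with scipy 1.17.1 on tables held in pandas 2.3.3 (numpy 2.4.6, under Python 3.11.15).

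The 10 genes and the lists were chosen with earlier results of these data known. Named in the text are the 10 genes, Pparg, up to 4 genes per list ranked by the difference in WT livers called with and without the drug (ties by symbol), and the 3 other genes most like Cfd, the leading gene by that difference and by mean fold enrichment. Rps21, Gm19810, Gm15581, Hdgfl2 and BC035947 were named after their positions were seen. Alternatives covered the gene window, overlap or summit, peak thresholds, equal numbers of peaks, exonic peaks, the number of livers, fragment length, leaving out each liver, pairing by replicate number and the test.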

Additional observations from a re-analysis of the deposited data

Results flagged for a closer look

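A liver stood apart from the other 4 of its group in 3 of 26 sets of 5 values tested by Dixon's criterion. For continuous values chance picks about 1 in 20, but in 2 of these 3 sets the other 4 livers had equal counts, so that any single differing liver met the criterion and that rate does not apply. In WT HFD, replicate 1 had a peak at 1 of the 10 genes and the other livers at 0. In KO HFD-Pio, replicate 1 had a peak at 2 of the 10 genes and the other livers at 3. For Lpl in KO HFD-Pio, replicate 5 had a strongest fold enrichment of 0 (no peak), and the nearest of the other livers had 3.75. That 0 stands for no call and is not a measured value, so the rate of 1 in 20 does not apply to this set either. Of the 40 tests of a difference between drug effects at the 10 genes, 0 passed.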

How the results depend on the processing

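Of the 10 genes, Cav1, Cd36 and Cfd were gained in WT Pio against WT Control. This count of 3 went to 0 with peaks of −log10 q of at least 5, with fold enrichment of at least 5 and with the same number of peaks in each library, and to 1 with summits outside exons or with no exon overlap (the last chosen after seeing the data). With the gene body only it was 2 (Cav1 and Cd36), as the Cfd region lies upstream of the gene. For WT Control against KO Control, the 1 gene lost went to 0 with the gene body only, outside exons, without exon overlap and with equal numbers of peaks, and the genes called over all genes (0) went to 2398 with 10 kb on either side, 2158 and 1084 with −log10 q of at least 1.3 and 5, 1197 with fold enrichment of at least 5 and 2475 with the permutation test. For WT Pio against KO Pio, 1 gene was lost with 10 kb on either side, the 1 gained went to 0 with −log10 q of at least 5, fold enrichment of at least 5 and equal numbers of peaks, and the genes called (0) went to 1137, 1149 and 3202 with that q, that fold enrichment and the permutation test. For WT HFD against KO HFD, the 2 genes lost went to 1 with the gene body, with −log10 q of at least 5, with fold enrichment of at least 5 and with at least 4 of 5 livers, and to 0 outside exons, without exon overlap and with equal numbers of peaks, where the genes called (2789) also went to 0. That number was 1444 and 1512 with the stricter q and fold enrichment. For WT HFD-Pio against KO HFD-Pio, the 1 gene lost went to 2 with 10 kb on either side and to 0 with −log10 q of at least 5, fold enrichment of at least 5, outside exons, without exon overlap and with equal numbers of peaks, and the genes called (0) went to 2178 with −log10 q of at least 1.3, 972 with fold enrichment of at least 5 and 2840 with the permutation test. With equal numbers of peaks, each library kept only as many intervals as the smallest library of its comparison, 579 to 2113 in these 5 comparisons. Most peaks of the larger libraries are removed by that cut, so nothing is concluded from it. The cause of the other shifts was not tested.

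Leaving out 1 liver at a time gave 0 to 2911 genes called in WT Control against KO Control, 0 to 2182 in WT Pio against KO Pio (2182 without WT Pio 3) and 2806 to 4145 in WT HFD against KO HFD. It gave 1 to 2 of the 10 genes lost in WT HFD against KO HFD (1, Cfd, without KO HFD 1, 3 or 4) and 0 to 1 gained in KO HFD-Pio against KO HFD (1 without KO HFD 1). Other counts of the 10 genes stayed as they were in the 12 comparisons. With the replicate number as a block (exact McNemar test), 0 genes were called in WT HFD against KO HFD, but with 5 pairs this test cannot go below p = 0.0625, so it could call no gene in any comparison and says nothing about pairing. Deviations of same-numbered livers correlated by -0.076 to 0.090 in 11 comparisons, WT HFD against KO HFD included (-0.017 to 0.006), and by -0.414 to 0.109 in WT HFD-Pio against WT Pio, where 1 of 5 pairs passed 0.1. The numbers were not taken to pair the livers. DR1 matches at the regions of the 10 genes went from 2 to 0 with at most 1 mismatch. With only libraries of at least 50 bp fragments, the gained count could not be formed for WT groups with pioglitazone, which kept 2 livers each. Of 640 counts of livers per gene and group, 513 stayed within 1.5 times and 127 did not. Most peaks at the 10 genes, 57 of 95, rest on 2 or 3 tags. The count was 24 of 30 in the short-fragment WT libraries, 1 of 10 in the other WT libraries and 32 of 55 in KO libraries. The 2 WT sets kept 2.04 to 4.05 and 2.15 to 4.26 M tags. The part of depth in these low pileups was not tested.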
